A study of Mus musculus with 12 samples.

Results

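Ubn1 and Sec14l5 lie on mouse chromosome 16 with one gene, Ppl, between them, and are described here through the m6A peaks that fall on them in the mouse hippocampus at 2 and at 6 weeks of age. The members are all peaks of 4 deposited lists that overlap the window from 5049000 to 5090000 for Ubn1 and from 5146500 to 5188000 for Sec14l5 (build mm9). There were 50 peaks in the Ubn1 window and 16 in the Sec14l5 window, of 148097 in the 4 lists. Merged where they shared at least 1 bp, they gave 24 and 8 regions, of 70674 over the genome. Both windows were chosen because earlier results on the same lists had shown peaks or RNA there that were higher at 6 weeks, so their calls and tags are given as a description and support nothing by themselves. The peak lists name no genes and carry no usable strand. Gene names therefore rest on the windows, and no exon, intron or UTR was assigned because no mm9 annotation was used here.

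The study examined N6-methyladenosine (m6A) in mouse hippocampus, and the 4 lists come from m6A immunoprecipitation (m6A-IP) libraries of wild-type C57BL/6 males, 2 libraries at 2 weeks of age and 2 at 6 weeks. No treatment is labelled, and the RNA was poly(A)-selected. Nothing names the animals behind a library, so the spread between replicates may be partly technical. The other 8 of the 12 samples, including adult Fto knockout hippocampus at 8 to 12 weeks, were not analysed here. m6A is a methyl mark that a methyltransferase complex writes on adenosines of messenger RNA and that FTO can remove. It is read by proteins that affect splicing, translation and decay of the transcript, and in most mRNAs it is concentrated in long internal exons and around the stop codon. In m6A-IP, RNA fragments bound by an antibody against the mark are sequenced and compared with unselected fragments of input RNA, called the control here. A peak therefore needs both a transcript and enrichment over that transcript. Control tags in the peak are taken here as the RNA level there, although the library used as control is not stated.

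Ubn1 encodes ubinuclein 1, a subunit of the HIRA histone chaperone complex, which places a variant of histone H3 into chromatin outside DNA replication. Sec14l5 encodes a member of the SEC14-like family, proteins with a CRAL-TRIO lipid-binding domain named after the yeast phosphatidylinositol transfer protein Sec14. In RefSeq's GRCm38.p6 annotation the order along the chromosome is Rogdi, Glyr1, Ubn1, Ppl, Sec14l5 and Nagpa, with Ubn1 and Sec14l5 on the plus strand and Rogdi, Glyr1 and Nagpa on the minus strand. Regions near an edge of the Ubn1 window may thus belong to transcripts of Glyr1 or Ppl, which the lists cannot tell apart from those of Ubn1. The same holds for Nagpa at the end of the Sec14l5 window, where the Sec14l5 regions with more tags at 6 weeks lie.

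Peak sequences are not shown, since no mm9 genome was used here. The promoters, from 250 bases before to 50 bases after the annotated start on GRCm38.p6 (RefSeq), are shown to set the genes' starts side by side, with each CpG dinucleotide in capitals. Both lie on the plus strand, Ubn1 at chr16:5049807-5050106 and Sec14l5 at chr16:5146859-5147158, and these positions were not set against the mm9 peaks.
Ubn1: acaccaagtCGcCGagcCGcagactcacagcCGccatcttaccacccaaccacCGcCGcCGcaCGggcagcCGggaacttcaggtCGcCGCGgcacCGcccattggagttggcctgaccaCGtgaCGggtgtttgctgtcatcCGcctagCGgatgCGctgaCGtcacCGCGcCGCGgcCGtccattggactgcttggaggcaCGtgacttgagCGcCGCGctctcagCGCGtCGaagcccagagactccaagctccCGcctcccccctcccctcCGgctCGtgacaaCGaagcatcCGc
Sec14l5: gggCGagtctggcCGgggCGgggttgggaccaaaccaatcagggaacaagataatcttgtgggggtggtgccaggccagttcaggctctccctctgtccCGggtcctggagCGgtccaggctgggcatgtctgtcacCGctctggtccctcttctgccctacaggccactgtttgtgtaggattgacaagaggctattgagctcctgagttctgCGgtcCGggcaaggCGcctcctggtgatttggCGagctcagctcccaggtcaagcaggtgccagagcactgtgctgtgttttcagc
The Ubn1 promoter holds 36 CpG and is 68% G or C, and the Sec14l5 promoter holds 10 and is 61%. The median over 32544 mouse promoters of the same length is 7 CpG and 53%. CACGTG, 1 form of the E-box, occurs 2 times in the Ubn1 promoter and TGACGTCA, the cAMP response element, 1 time, searched on both strands. Neither string is in the Sec14l5 promoter, and TATAAA is in neither promoter. Other forms of the E-box were not counted. Over all promoters of that length, 7.17% hold CACGTG, 1.80% TGACGTCA and 13.6% TATAAA. These matches are letters in the window and say nothing of binding.

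At 2 weeks a list had 39259 or 39105 peaks, at 6 weeks 33239 or 36494, and every peak had a fold of at least 3 over the control. If the deposited scale is 10000000 tags (10M, HOMER's usual setting), the IP libraries held 23.4M and 23.0M tags at 2 weeks against 16.1M and 16.5M at 6 weeks. Their controls held 29.3M and 16.8M against 15.8M and 11.7M. Tags below are given per 10M on that scale. Age therefore went with depth, with fewer tags at 6 weeks, and the effects of both cannot be told apart. A single control tag was worth 0.341, 0.594, 0.633 and 0.854 per 10M in the 4 libraries in that order.

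Both windows held more peaks at 6 weeks than at 2 weeks. The Ubn1 window held 8 peaks in each 2-week list against 15 and 19 at 6 weeks. The Sec14l5 window held 2 in each 2-week list against 6 in each 6-week list. In each window both 6-week libraries lay above both 2-week libraries, while the 6-week lists as a whole were shorter. Stretches of the same length beside the windows held 2, 3, 5 and 3 peaks before Ubn1 and 3, 2, 2 and 5 after Sec14l5, so at 2 weeks the Sec14l5 window held no more than the stretch after it. No list had a peak in the 56498 bp between the windows. The peaks nearest to the outer edges lay 12869 to 33410 bp before the Ubn1 window and 7497 to 7611 bp after the Sec14l5 window. An exact two-sided permutation test of 2 libraries against 2 cannot give a p under 0.333, so no test was run on these counts.

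**Figure D1:**
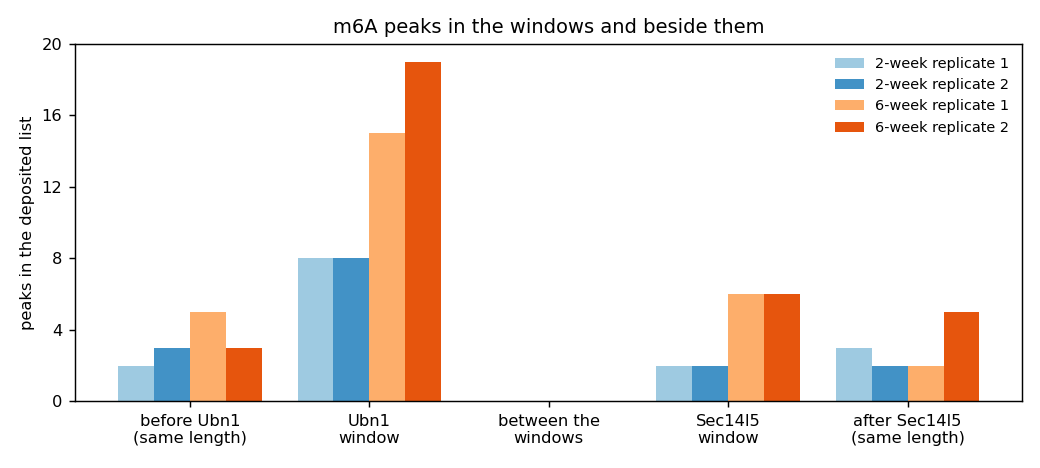
Number of peaks in each deposited list (bars, 1 per library) in the Ubn1 and Sec14l5 windows, between them and in stretches of the same length beside them. The 6-week libraries have 15 and 19 peaks in the Ubn1 window against 8 and 8 at 2 weeks, and the stretch between the windows has none.

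In the Ubn1 window 5 of 24 regions were called at 6 weeks only, meaning in both 6-week lists and in neither 2-week list. None was called at 2 weeks only, 3 were called in all 4 libraries, 6 in another mix of lists and 10 in 1 list. Over the genome 1.92% of regions were called at 6 weeks only, 6.41% at 2 weeks only and 14.4% in all 4. Another mix of lists held 18.6% of regions and a single list 58.6%. The Sec14l5 window had 1 region of 8 called at 6 weeks only, none at 2 weeks only and 2 in all 4, and its remaining 5 were called in a single 6-week list. Because the Ubn1 window was picked for its regions called at 6 weeks only, nothing is read from the excess over the genome.

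**Figure D2:**
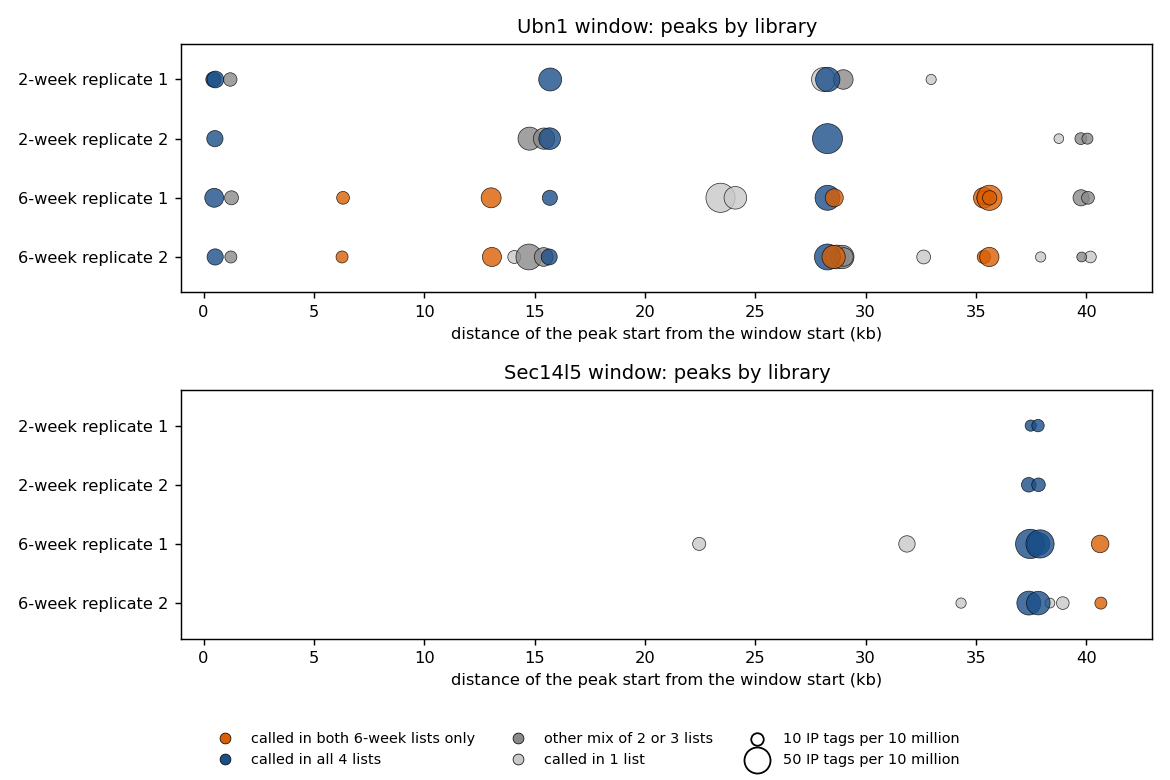
Position of each peak by its distance from the start of the window (horizontal axis, kb) and library (rows), with the area of a point rising with IP tags per 10M and colours for the lists in which its region was called. The 5 Ubn1 regions called at 6 weeks only are spread over the window, and the Sec14l5 regions called in all 4 lists sit close together near its end.

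The 5 Ubn1 regions called at 6 weeks only were spread from 6276 to 35608 bp after the window's start, and each held control tags in both 6-week libraries. The first, from 5055276 to 5055422, had the fewest IP tags, with 10.5 and 9.09 IP tags per 10M in 6-week replicates 1 and 2 and control tags of 2.53 and 0.854. The next, from 5062033 to 5062168, had 28.5 and 26.0 IP tags over 8.24 and 7.68 control tags, so its replicates were close in both measures. Its fold over control, as given in the authors' lists, was 3.46 and 3.39. The third region, from 5077553 to 5077681, had 22.9 and 39.4 IP tags over 7.60 and 8.54 control tags, at 3.02-fold and 4.61-fold. It was the only one of the 5 with 2-week peaks close by, 167 and 179 bp away, at a region called in all 4 libraries.

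The last 2 of these regions lay side by side. The region from 5084358 to 5084460 had a pair of peaks with the same printed interval in 6-week replicate 1, with 30.4 and 12.4 IP tags over 9.50 and 1.27 control tags, and 1 peak in replicate 2 with 11.5 over 2.56. The lists do not state how the tags of that pair were counted, and the reason for its different counts was not tested. The region from 5084608 to 5084723 had 46.5 and 13.6 IP tags in replicate 1, in a pair of overlapping peaks over 15.2 and 3.80 control tags, and 26.7 over 7.68 in replicate 2. The 2-week peaks nearest to these regions were 2286 to 3298 bp away. For the regions from 5055276 and 5062033 they were 4966 and 5662 bp, and 2540 and 1604 bp away. A region without a 2-week peak is not shown to lack IP or control tags at 2 weeks, because the lists give no tags where no peak was called.

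Many of these calls sat close to the 3-fold minimum of the lists. Of the 12 6-week peaks in the 5 regions, 7 had a fold under 4, against 33.1% of the 2895 such peaks over the genome, and their median fold was 3.53 against 4.84. The 6 6-week peaks in the Ubn1 regions called in all 4 libraries had a median fold of 7.17 and none under 4. At 2 weeks, however, these regions held peaks at 3.86-fold, 3.84-fold and 3.36-fold. In each 2-week list 3 of the 8 Ubn1 peaks had a fold under 4, against 20.4% and 17.0% of all peaks in replicates 1 and 2. Low folds in this window were thus not confined to the calls at 6 weeks only. The lowest fold of any peak in either window was 3.02, and peaks below 3 are not in the lists. With peaks at 6-fold or more only, 0 Ubn1 regions remained in the class called at 6 weeks only, and 0 in the class called in all 4. Over the genome these classes then held 1.89% and 5.83% of regions. With peaks within 200 bp merged there were 3 at 6 weeks only, a class that then held 2.24% of regions over the genome. Without 6-week replicate 1 there were 10, a class that then needs a call in 1 list and holds 21.1% of regions over the genome.

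**Figure D3:**
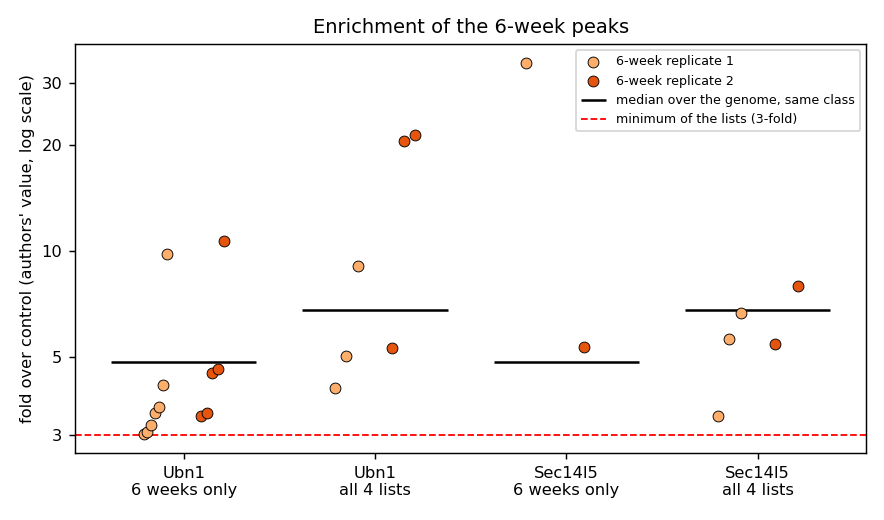
Fold over control of each 6-week peak (points, the authors' value, log scale) in regions called at 6 weeks only and in all 4 lists, with the genome-wide median of the same class (black line) and the minimum of the lists (dashed line). Of the 12 Ubn1 peaks called at 6 weeks only, 7 lie under 4-fold.

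The 3 Ubn1 regions called in all 4 libraries gave a different picture from the calls, since none had more IP or control tags at 6 weeks in both libraries than in both at 2 weeks. The region from 5064666 to 5064808 had 38.4 and 34.0 IP tags at 2 weeks against 15.5 and 17.6 at 6 weeks. Its control tags were 9.21 and 10.1 against 3.80 and 0.854. In both measures the 6-week libraries lay below both 2-week libraries, as they did in 43.2% of 4577 regions with exactly 1 peak in each list for IP tags and in 48.0% for control tags. In a fit over those 4577 regions its control tags had a log2 change from 2 to 6 weeks of -1.42 ± 0.65 (SE; n = 2 libraries an age), which did not pass (edgeR quasi-likelihood test, adjusted p = 0.270). Without 6-week replicate 1 it was -2.81, and over the 4 fits without 1 library it ranged from -2.81 to -0.88. With total tags in place of TMM scaling, which moves the median region from -0.03 to -0.53, the change was -1.91 and passed (edgeR adjusted p = 0.0425). In that setting 370 of the 4577 regions passed with fewer control tags at 6 weeks and 21 with more.

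The Ubn1 region with the most IP tags among those in all 4 lists, from 5077272 to 5077386, had 43.5 and 67.1 IP tags at 2 weeks against 45.9 and 49.7 at 6 weeks. Its control tags were 6.82 and 10.1 against 5.07 and 9.39. The ages overlapped in both measures, and the log2 changes were 0.26 ± 0.41 in IP tags, 0.29 ± 0.54 in control tags and -0.03 ± 0.54 in their ratio (SE). None of the 3 passed (edgeR adjusted p = 0.793, 0.856 and 0.999), and each changed sign under total-tag scaling, to -0.21, -0.23 and 0.07. Close to the window's start, the region from 5049448 to 5049637 had a pair of peaks in 2-week replicate 1 with 15.8 and 19.6 IP tags and 1 peak in the others, with 18.3 in 2-week replicate 2 and 25.4 and 18.2 at 6 weeks. Its control tags were 4.09 and 5.12 in that pair, 1.78 in 2-week replicate 2 and 5.07 and 0.854 at 6 weeks, so the ages overlapped in both measures.

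The 6 Ubn1 regions called in another mix of lists were spread over the window, from 1210 to 40053 bp after its start. From 5063742 to 5063872, 2-week replicate 2 and 6-week replicate 2 had 38.8 and 49.1 IP tags, and from 5064412 to 5064529 the same libraries had 32.7 and 24.8, while neither replicate 1 was called. From 5077946 to 5078121 the calls were 1 peak in 2-week replicate 1, with 27.3 IP tags, and a pair in 6-week replicate 2, with 40.0 and 24.2. Toward the window's end, the region from 5088754 to 5088894 was called in 2-week replicate 2, with 8.71 IP tags, and in both 6-week libraries, with 18.0 and 5.45. No control tag fell in any of these 3 peaks, and a count of 0 allows up to 1.78, 1.90 and 2.56 control tags per 10M (3 tags, counting error only). The authors' folds of 29.32, 56.78 and 12.77 there are computed against a control of 0.5 tag. From 5089053 to 5089178, 2-week replicate 2 and 6-week replicate 1 had 7.40 and 10.5 IP tags over 1 control tag each. This end of the window is the one nearest to Ppl.

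Of the remaining mix near the window's start, the region from 5050210 to 5050366 had 11.9 IP tags in 2-week replicate 1 and 13.0 and 9.09 at 6 weeks, and was not called in 2-week replicate 2. The 10 regions called in 1 list were split 2 and 1 between the 2-week libraries and 2 and 5 between the 6-week libraries. The pair in 6-week replicate 1, from 5072427 and 5073100, had 63.2 and 37.2 IP tags over 17.1 and 10.1 control tags, at folds of 3.70 and 3.67 near the minimum of the lists, and the nearest peak of 6-week replicate 2 was 4072 bp from the second.

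In the Sec14l5 window the signal lay in the last part, where both the RNA and its m6A-IP tags were higher at 6 weeks. The region from 5183896 to 5184085 had 2 and 1 control tags at 2 weeks against 18 and 9 at 6 weeks, which is 0.682 and 0.594 per 10M against 11.4 and 7.68. Its IP tags were 7.68 and 14.4 per 10M at 2 weeks against 63.9 and 41.8 at 6 weeks. Both 6-week libraries lay above both 2-week libraries in both measures, which held for 6.88% of the 4577 regions in control tags and 6.49% in IP tags. Per 10M, pooled control tags were 15.1-fold higher at 6 weeks, with a 95% exact interval of 4.65 to 77.8 that covers counting error only. IP tags were 4.79-fold higher, with an interval of 3.49 to 6.69 that likewise covers counting error only. Replicates differed by more than that, so both intervals understate the spread between libraries.

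The fit over the 4577 regions gave log2 changes of 4.24 ± 0.76 in control tags and 2.66 ± 0.44 in IP tags (SE; n = 2 libraries an age), and 99.96% and 99.91% of regions had a lower value. Over all regions, edgeR at an adjusted p of 0.05 called 51 (1.11%) with more control tags at 6 weeks and 49 (1.07%) with fewer, and 39 (0.852%) with more IP tags and 11 (0.240%) with fewer. The region was known to be among those with the largest change when it was chosen, so whether it is called is not a test of it. When 2-week replicate 1 or 2 was left out its log2 change in control tags was 4.41 or 4.11, and edgeR called no region of the genome (285 and 372 at an unadjusted p under 0.05). In IP tags the change was 2.34 and 3.09 without these libraries and 2.25 with total tags. The starts of its 4 peaks lay up to 89 bp apart, so the tags were not counted over 1 common interval.

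**Figure D4:**
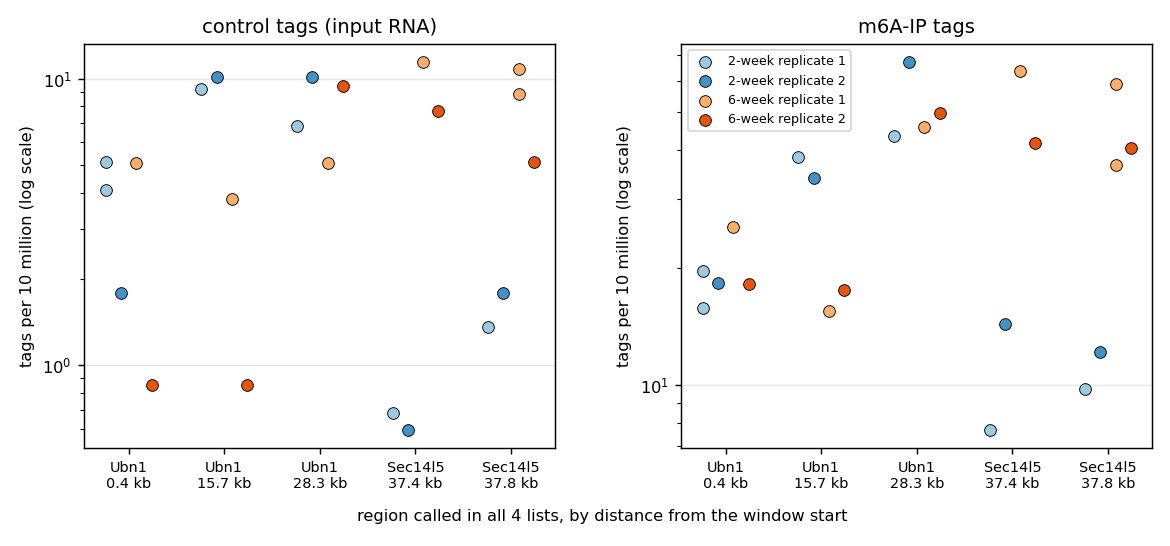
Control tags (left) and m6A-IP tags (right) per 10M (log scales) in each library at the 5 regions called in all 4 lists; each point is 1 peak, and a library with a pair of peaks has a pair of points. Both 6-week libraries lie above both 2-week libraries at the Sec14l5 regions, and below them at the Ubn1 region 15666 bp into its window.

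The fold over control had the opposite order of libraries in this region. The authors' fold over control was 11.26 and 24.19 at 2 weeks and 5.60 and 5.44 at 6 weeks, so both 2-week libraries lay above both 6-week libraries. The log2 change of the IP to control ratio was -1.62 ± 0.85 (SE), and 0.415% of regions had a lower value. It did not pass, and neither did any other of the 4577 regions in edgeR (0 called, 127 at an unadjusted p under 0.05; DESeq2 also called 0, with 28). The 2-week fold rests on 2 and 1 control tags. Control tags are the lower part of the ratio, and the region was known for its large change when it was chosen. The order of the folds and the rank of the ratio reuse those values and are a description only.

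The neighbouring region from 5184314 to 5184506 also had more tags at 6 weeks. It had 9.81 and 12.2 IP tags at 2 weeks, a pair of overlapping peaks with 36.6 and 58.9 in 6-week replicate 1, and 40.6 in 6-week replicate 2. Control tags were 1.36 and 1.78 in the 2-week libraries, 10.8 and 8.87 in the pair, and 5.12 in 6-week replicate 2. Each 6-week peak thus lay above both 2-week peaks in both measures. The folds, 7.19 and 6.84 at 2 weeks and 3.40, 6.64 and 7.92 at 6 weeks, overlapped between the ages. It had more than 1 peak in a list and so was outside the main fit. With the tags of all 10203 regions called in all 4 libraries, summed over a list's peaks, its log2 change was 2.82 ± 0.64 in control tags and 2.94 ± 0.51 in IP tags (SE), and is likewise a description. Where overlapping peaks share tags, that sum counts them more than once.

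The Sec14l5 region called at 6 weeks only lay closest to the window's end, from 5187129 to 5187263. It had 21.7 and 9.09 IP tags per 10M in the 6-week replicates, from 35 and 15 tags, over 1 and 2 control tags, at 34.26-fold and 5.32-fold. The nearest 2-week peaks were 2715 and 2692 bp away. The 5 regions called in 1 list were all in 6-week lists, 2 in replicate 1, with 11.2 and 18.6 IP tags, and 3 in replicate 2, with 5.45 to 10.3. The 3 in replicate 2 had no control tag, which in that library allows up to 2.56 per 10M.

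Control tags per peak are given for both windows as a description. Over all peaks called in the Ubn1 window, the mean control tags per peak were 5.76 and 5.50 per 10M at 2 weeks and 6.21 and 4.49 at 6 weeks, over 789, 800, 1309 and 1875 bp of peaks. The ages overlapped in this mean, while the length covered by peaks was larger in both 6-week libraries. In the Sec14l5 window the mean was 1.02 and 1.19 at 2 weeks and 6.44 and 2.42 at 6 weeks, over 200, 200, 564 and 600 bp. There both the mean and the covered length were higher in both 6-week libraries, but the median was 1.02 and 1.19 against 6.34 and 0.854, and overlapped between the ages. In 6-week replicate 2, 3 of the 6 Sec14l5 peaks had no control tag. Each value is over the peaks that a library called, which differ between libraries, and no test compared the windows. In bulk tissue, fewer cells with a transcript and less of it per cell cannot be told apart.

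**Figure D5:**
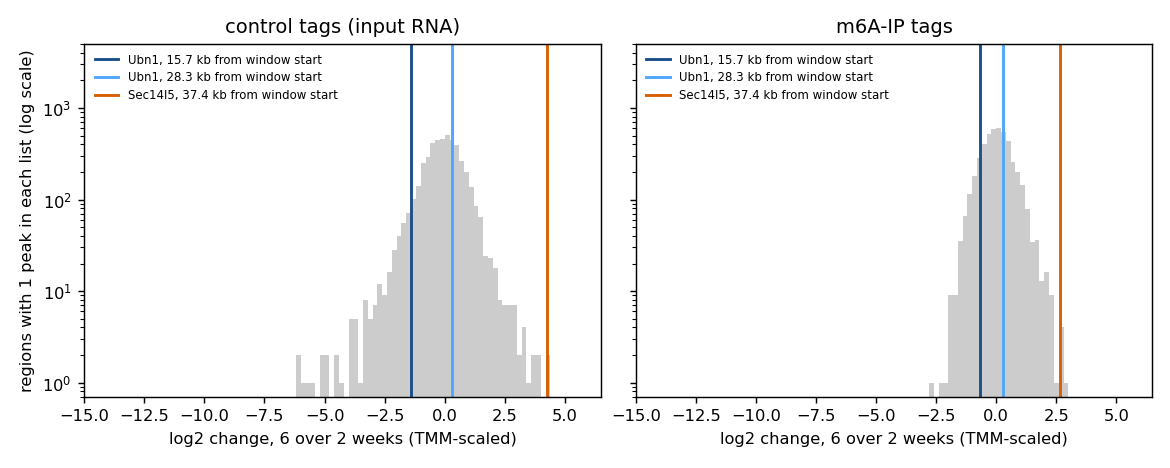
Distribution over 4577 regions with 1 peak in each list (grey bars, log count axis) of the TMM-scaled log2 change from 2 to 6 weeks in control tags (left) and IP tags (right), with vertical lines at the 3 regions of the windows. The Sec14l5 region lies at 4.24 and 2.66, near the upper end of both. The Ubn1 region from 5064666 lies toward the lower end, with 5.79% of regions below it in control tags and 12.6% in IP tags. The Ubn1 region from 5077272 has 67.0% and 65.0% below it.

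Patterns most like these were sought over the genome. When regions less than 10 kb apart were joined into 23956 loci, the Ubn1 locus was the only one with 5 regions called at 6 weeks only, and 2 loci had at least 4. The Ubn1 window was picked for these calls and its locus held 24 regions in all, so nothing is read from this rank. By the Euclidean distance between the counts of regions called at 6 weeks only, at 2 weeks only and in all 4 libraries, the most alike were 4 tied loci, one on chromosome 1 from 184420156 to 184425315, with 3, 0 and 3 such regions, at a distance of 2. The others, on chromosome 10 (57939384 to 57943537), chromosome 19 (5039580 to 5054201) and chromosome 7 (134744380 to 134755891), had the same counts. These 4 loci held 12, 13, 21 and 12 regions in all, in the order named, and the distance takes no account of that size. By the distance of log2 control tags per 10M, with 1 added, over the 4 libraries, the region most like that of Sec14l5 was chromosome 11 from 74986741 to 74986956, at 0.478. It had 0.682 and 1.19 control tags at 2 weeks against 12.7 and 7.68 at 6 weeks, values close to that of Sec14l5 in each library. Chromosome 6 from 127722199 to 127722324 and chromosome 9 from 122930154 to 122930356 followed at 1.04 and 1.22. These likenesses are over 4 libraries and are descriptions.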

How the data were processed

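Each of the 4 m6A-IP libraries has its own deposited peak list. The column names are those of HOMER's peak caller, per the file headers, and the submitters' processing notes name HOMER, mm9, Cufflinks 2.2.1, Bowtie2 2.2.3 and TopHat2 2.1.1 and 2.0.13, with no role. Neither the caller's options nor the library used as control is stated in those sources. Within a library the authors multiplied tags by 1 factor to give the deposited signal (normalized tag count). IP tags are plain counts in the deposited list of 2-week replicate 1, with a factor on the control, while in the other 3 lists the factor is on the IP tags and control tags are plain. The deposited fold ratio and p-value were used as descriptions, and the deposited score, focus ratio (a fraction) and clonal fold ratio not at all.

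Whole tags were recovered by dividing by the value of 1 tag, and at least 100.0% of values, as rounded, came out whole within 0.2 tag. A control of 0.5 tag was set to 0. Peaks sharing at least 1 bp were merged. Control tags, IP tags and their ratio (the interaction of fraction and age with a sample term) were fitted over 4577 regions with exactly 1 peak in each list by edgeR's quasi-likelihood test with TMM, no filter on low tags, a width offset for control tags and Benjamini-Hochberg adjustment at 0.05. The windows, regions and lists were chosen with earlier results of these data known. Regions described one by one were those called in all 4 libraries, in both libraries of an age, or in another mix, and the 3 most alike loci and regions were named by smallest distance, with 1 more locus that tied. A planned list of related genes was not used, since no gene positions on mm9 were used here, and the tissue label could not be set against marker genes for the same reason. Replicates differed by more than sampling noise (chi-square per degree of freedom 16.7 and 22.0 in IP tags, 3.17 and 2.55 in control tags). Fits used edgeR 4.0.16 and DESeq2 1.42.0 in R 4.3.3; the rest used Python 3.11.15 with scipy 1.17.1, numpy 2.4.6 and pandas 2.3.3.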

Additional observations from a re-analysis of the deposited data

How the results depend on the processing

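Of the window counts, 6-fold peaks only gave 0 regions at 6 weeks only and 0 in all 4 libraries for Ubn1, and 0 and 1 for Sec14l5, with 1 at 2 weeks only; fewer peaks enter by construction. An overlap of 50 bp gave 1 Sec14l5 region in all 4, and merging within 200 bp gave 3 Ubn1 regions at 6 weeks only. Leaving out 1 library gave 6 to 10 Ubn1 regions at 6 weeks only, 0 to 2 at 2 weeks only and 3 to 4 in all lists left, and for Sec14l5 1 to 4, 0 and 2; the highest came without 6-week replicate 1 (10 and 4), and without 6-week replicate 2 Sec14l5 had 3. Without 2-week replicates 1 and 2, Ubn1 had 1 and 2 at 2 weeks only. A class that then needs 1 list is larger over the genome too: without 6-week replicates 1 and 2, 21.1% and 20.6% of regions were called at 6 weeks only, and without 2-week replicates 1 and 2, 23.8% and 23.2% at 2 weeks only.

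Over the genome, 100 regions were called in control tags (51 higher, 49 lower), and total tags gave 391 (21 and 370), DESeq2 39 (with no adjusted p for 3461 regions), a minimum of 10 tags 55 and summed tags 49. For IP tags, with 50 called, these gave 0, 104, 26 and 0 (736 regions at an unadjusted p under 0.05 with total tags and 1282 with summed tags, edgeR). Leaving out 1 library gave 0 to 157 in control tags, 4 to 727 in IP tags and 0 to 2 in enrichment; the lone library is assumed to vary like the other age, and the cause was not tested. With the replicate number as a block, 99, 190 and 0 regions were called. The labels give these numbers no shared source, and deviations of same-numbered libraries correlated at 0.03 in both kinds of tags.

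Of the member regions, the one from 5077272 turned sign with total tags to -0.23 in control tags, -0.21 in IP tags and 0.067 in enrichment, and ranged from -0.25 to 0.81, -0.14 to 0.60 and -0.20 to 0.16 without 1 library. The enrichment change of the region from 5064666 was 0.66 and ranged from -0.21 to 2.52, with its lowest value when 6-week replicate 2 was left out. In control tags, neither the Sec14l5 region nor the Ubn1 regions from 5064666 and 5077272 had an adjusted p from DESeq2. The Sec14l5 region from 5183896 was known to have a large change when it was chosen, so a kept direction is not a test of it. In all 9 alternatives it kept its direction, at 3.77 to 4.44 in control tags, 2.25 to 3.09 in IP tags and -2.22 to -1.13 in enrichment. Its few 2-week control tags limit the precision of the last.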
